A study of Mus musculus with 11 samples.

Results

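The mouse genes described here are zinc finger protein genes, the rows of a table of FMRP-bound RNA fragments whose symbol is Zfp followed by a number and at most 1 letter. A row was taken when its counts summed to at least 30 over all 11 libraries. The members were thus selected by their own counts, and 83 of the 367 Zfp rows with any count qualified, out of 30986 rows in the table. They held 5411 of the 9127 Zfp counts (59.3%), with a median sum of 48 and a highest sum of 324, in Zfp106. The cerebellum libraries hold 41.1% of all counts, so the sum weights cerebellum more than any level per library would. Zfp260, Zfp319, Zfp324, Zfp518a and Zfp821 stood just inside the threshold with 30 counts each, and Zfp354c and Zfp84 just outside it with 29.

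The fragments come from brain tissue of mice at postnatal day 13, as 2 libraries of cerebellum, 3 of cortex and 5 of hippocampus. The series title names PDE2A and Fragile X syndrome. The tissue was ground in liquid nitrogen, crosslinked with 3 ultraviolet doses of 400 mJ at 254 nm, and FMRP was immunoprecipitated. The labels give no strain, genotype, sex or treatment that differs between libraries, and every group is whole dissected tissue. A further library is cortex by its title but hippocampus by its tissue label, and it entered no region.

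FMRP is a neuronal RNA-binding protein that is missing in Fragile X syndrome, associates with polyribosomes and represses the translation of many mRNAs it binds. Ultraviolet light links it to the RNA it touches, so the fragments show which transcripts lay in its reach. Most Zfp genes encode proteins with C2H2 fingers, small folds held by a zinc ion between a pair of cysteines and a pair of histidines, which bind DNA and in some cases RNA. In the large family with a KRAB domain, whose repressor function runs through the corepressor KAP1 (Trim28), many fingers stand in a row and are joined by a nearly constant linker. Genes of that family often lie in clusters and resemble each other closely in sequence.

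The linker is the stretch that these mRNAs repeat, and members are grouped by it below. It was searched in the coding sequence, on the sense strand of the transcript only, as the codons of threonine, glycine, glutamate or aspartate, lysine or asparagine, and proline. The last base of each codon was free, and that of proline was left out, which gives 14 letters. A copy from each of 5 members with many of them and 3 members with few is shown to let the shared and varying letters be seen. Each is 30 bases, 5′ to 3′, in the annotation's GRCm38 (mm10) transcripts, with the searched motif in capitals and 8 bases to each side.
Zfp458: tagttcatACAGGAGAAAAACCctaccagt
Zfp2: ggattcacACTGGGGAGAAACCctacacat
Zfp26: gaagtcatACGGGAGAGAAGCCgtatcagt
Zfp40: gaattcatACTGGAGAGAAACCttacaaat
Zfp62: gcatccatACTGGGGAAAAGCCctataagt
Zfp871: gaattcacACGGGGGAGAAACCgtacgtgt
Zfp536: gcactcacACCGGTGAGAAGCCattcaagt
Zfp266: gagttcacACTGGGGAAAAGCCttacgaat
These stretches lie in coding exons at chr13:67257791-67257820 on the minus strand (Zfp458, 13 linkers in all), chr11:50900827-50900856 minus (Zfp2, 11 linkers), chr9:20437979-20438008 minus (Zfp26, 11 linkers) and chr17:23176267-23176296 minus (Zfp40, 11 linkers). The other four are chr11:49215598-49215627 plus (Zfp62, 10 linkers), chr17:32775449-32775478 minus (Zfp871, 4 linkers), chr7:37569512-37569541 minus (Zfp536, 2 linkers) and chr9:20499595-20499624 minus (Zfp266, 3 linkers).

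In all, 188 linkers were found in 44 of the 83 members (53.0%). Among all 4906 rows of the same threshold with an annotated transcript, 92 (1.88%) held the motif. Of the linkers, 177 lay with their flanks within 1 exon, and all 177 were read in the frame of the protein. Some tetramers that earlier work linked to FMRP occur inside the linker by its spelling: 72 of the 177 held ACTG and 71 held TGGA or AGGA. Over whole transcripts the members were not rich in them. TGGA and AGGA together had a median of 12.6 per kb in members and 13.5 per kb over all rows of the threshold, and ACTG and ACTT together 9.28 and 8.91 per kb. A match is a description of letters only, and these counts per gene do not show where along a transcript a fragment lay.

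The rows that missed the threshold differed from the members in build. Of 282 lower Zfp rows with an annotated transcript, 221 (78.4%) held the linker, with a median of 4 linkers against 1 in the members. Their median transcript was 3048 bases long and that of the members 5531, and a part of length in passing the threshold was not tested. Per length, the mean CPM (counts per 1000000 counts of the library) had a median of 14 per kb in the members, 5.12 per kb in the lower Zfp rows and 19.03 per kb over all rows of the threshold. The gap between members and lower Zfp rows in this level is largely given by the rule, which split them by their counts. Zfp106 stood highest per length at 57.8 CPM per kb, followed by Zfp521 at 43.1, Zfp207 at 41.0, Zfp740 at 40.0 and Zfp365 at 37.6. C2H2 patterns ran from 0 in Zfp365 to 30 in Zfp236, with a median of 8, and Zfp521, Zfp423 and Zfp646 had 27 each.

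**Figure D1:**
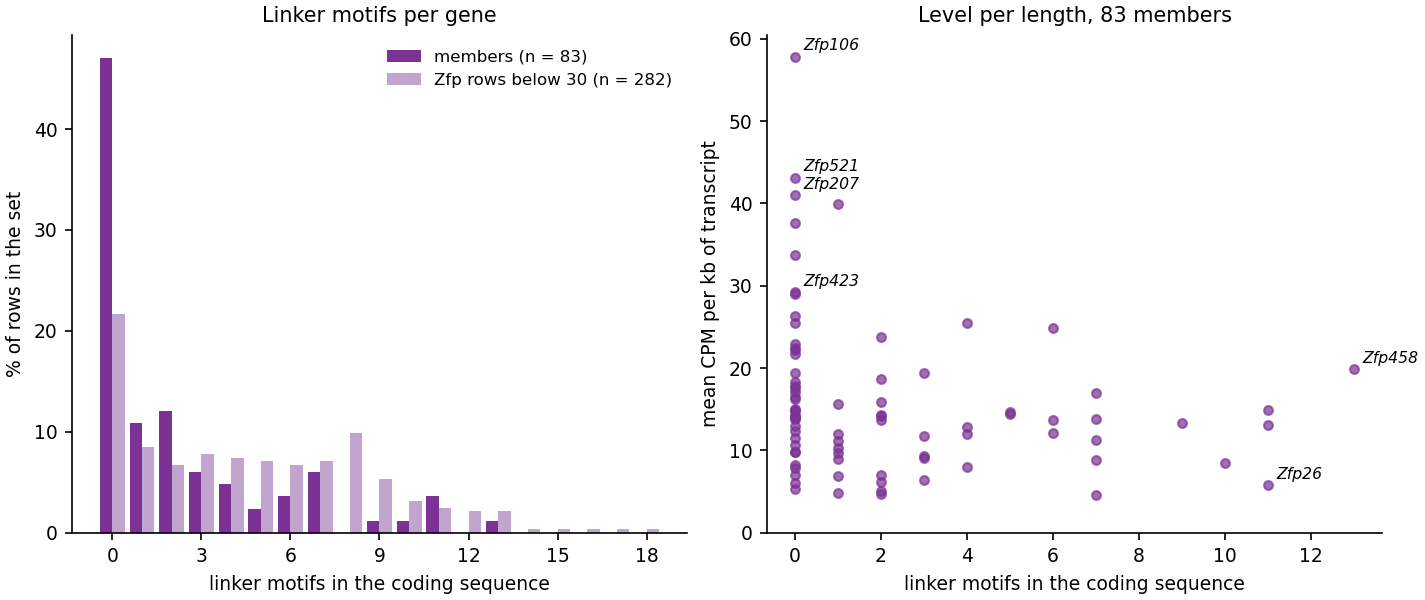
Left: percent of genes (y) by number of linker motifs in the coding sequence (x), for the 83 members and for 282 Zfp rows below 30 counts. Right: mean of the region mean CPM per kb of transcript (y) against linker motifs (x), 1 point a member. Zfp106, Zfp521 and Zfp423 have no linker, and the member with the most, Zfp458, has 13.

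The members are spread over 19 chromosomes, with 13 on chromosome 7, 10 on chromosome 9 and 9 on chromosome 2. Several are neighbours. Zfp26, Zfp426, Zfp266 and Zfp846 lie at chr9:20428449-20605409, Zfp398, Zfp282 and Zfp777 at chr6:47835661-48048911, and Zfp629, Zfp668 and Zfp646 at chr7:127607031-127885996. Near-identical copies are a limit on such genes, and 5 members shared more than 5% of their 25-base windows with other annotated genes: Zfp865 (20.5%), Zfp458 (19.5%), Zfp706 (10.7%), Zfp599 (8.03%) and Zfp40 (7.06%). Fragments of these 5 may be split between copies. A gene on the opposite strand overlapped 38 members, and the use of strand in the counting is not given in the sources used here.

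Total counts ran from 11898 (cortex 3) to 197382 (cerebellum 2), so that 1 count was worth 84.1 CPM in the shallowest library and 5.07 CPM in the deepest. The counts of hippocampus 1 and 2 agreed within sampling noise, so the pair was counted as 1 sample, hippocampus 1+2, which left 9 samples in regions. Libraries also differed in kind: 55 mRNAs known to be bound by FMRP took from 2.47% to 9.78% of the counts, with cortex 3, hippocampus 3 and hippocampus 4 lowest (2.47% to 3.91%), and predicted genes with Gm names took 12.2% to 12.6% there against 3.11% to 7.49% elsewhere. Cell type markers separated the regions: summed cerebellar granule cell markers were at 7245 to 8852 CPM in cerebellum and at 749 to 1322 CPM in cortex and hippocampus, while telencephalic excitatory neuron markers were at 639 to 800 CPM and at 1849 to 4661 CPM. Whether each library is a separate animal is not in the labels, and a p-value here then reflects only how these libraries vary, which may be technical. Intervals and floors cover counting error alone. Without an input library analysed here, the amount of an RNA and its binding by FMRP cannot be told apart, nor can fewer cells of a type and less RNA per cell.

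The 83 members together took a small share of the fragments, and the order of the regions depended on the scaling. As a part of library totals, the share was 0.850% (95% Wilson interval 0.793 to 0.910) in cerebellum 1 and 0.874% (0.834 to 0.916) in cerebellum 2. It was 0.671%, 0.663% and 0.647% in the cortex samples, and 0.687% (hippocampus 1+2), 0.683%, 0.688% and 0.794% in the hippocampus samples. Both cerebellum samples lay above all 7 forebrain samples, and each hippocampus sample lay above each cortex sample, although the counting intervals of the latter 2 regions overlapped. The means were 0.862% ± 0.0172 (SD, n = 2) in cerebellum, 0.660% ± 0.0120 (SD, n = 3) in cortex and 0.713% ± 0.0542 (SD, n = 4) in hippocampus. Since the members were chosen by sums that weight the deep cerebellum libraries, no test is given for this order. Between the lowest and the highest sample the share moved 1.35-fold, against 3.96-fold for the known FMRP-bound mRNAs and 4.05-fold for the predicted genes. With the totals scaled by the TMM factors that the tests used, the members took 0.850% and 0.890% of cerebellum counts, 0.531%, 0.532% and 0.665% of cortex counts, and 0.676% (1+2), 1.06%, 0.890% and 0.604% of hippocampus counts. On this scale hippocampus 3 stood above both cerebellum samples, hippocampus 4 level with cerebellum 2, and hippocampus 5 below cortex 3, and the range widened to 1.99-fold, against 2.13-fold for the known mRNAs and 7.83-fold for the predicted genes. Over all 367 Zfp rows hippocampus 3, at 1.42% of its total, also exceeded cerebellum, at 1.36% and 1.37%. With a minimum sum of 60 the mean of cortex (0.426%) exceeded that of hippocampus (0.393%), the reverse of the order at 30.

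With Zfp521 and Zfp423 left out, a choice made for their height in cerebellum, the share of library totals was 0.747% and 0.788% in cerebellum and 0.647% to 0.780% in the forebrain samples. Hippocampus 5 was the highest of the forebrain and the only sample to overlap, and the other six lay at 0.647% to 0.665%, below both cerebellum samples. The 284 Zfp rows below the threshold together took 0.509% and 0.500% in cerebellum, 0.342%, 0.364% and 0.530% in cortex, and 0.468%, 0.740%, 0.679% and 0.362% in hippocampus. Their highest values were in hippocampus 3 and 4, and cerebellum lay within the forebrain range.

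Members with and without linkers differed in how their share moved between samples. The 39 members without a linker took 0.559% in both cerebellum samples. They took 0.466%, 0.366% and 0.353% in cortex and 0.403%, 0.323%, 0.346% and 0.557% in hippocampus, so cerebellum 1 and 2 stood at the top with hippocampus 5 beside them. The 16 members with 5 or more linkers took 0.0723% and 0.0978% in cerebellum, 0.0586%, 0.0789% and 0.109% in cortex, and 0.0998%, 0.127%, 0.114% and 0.0557% in hippocampus. Here the 3 highest were hippocampus 3, hippocampus 4 and cortex 3, the samples with the lowest share of known FMRP-bound mRNAs and the highest share of predicted genes. Counts of linker-free members exceeded those of linker-rich members 2.54-fold to 3.23-fold in these 3 samples and 4.04-fold to 10-fold in the other samples. The ranges did not overlap as point values, but no counting interval was computed for the ratios. Cortex 3 rested on 42 over 13 counts and hippocampus 5 on 120 over 12. For the linker-rich share, the Wilson interval of cortex 3 (0.0639% to 0.187%) contained that of hippocampus 1+2 (0.0840% to 0.118%). A part of library make-up in the ratio of linker-free to linker-rich counts was not tested.

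**Figure D2:**
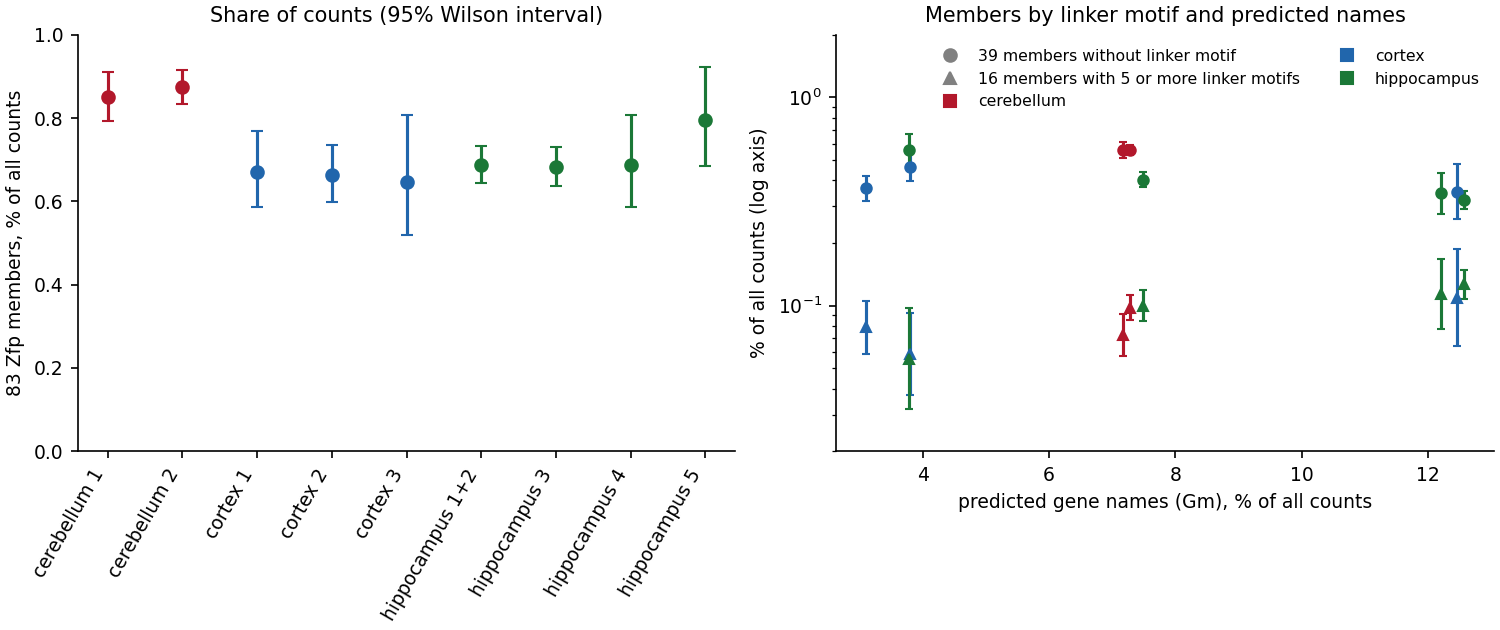
Left: share of library totals, with no TMM scaling, on the 83 members (y, %) in each of 9 samples (x), with 95% Wilson intervals. Right: share of all counts (y, %, log axis) of the 39 members without a linker (circles) and the 16 with 5 or more (triangles) against the share of predicted genes (x, %), colour by region. The right panel shows triangles highest and circles lowest in the 3 samples at 12.2% to 12.6% predicted genes.

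A KRAB domain was recognised in the coding sequence of 15 members by a strict pattern that misses divergent boxes, and these are Zfp871, Zfp266, Zfp846, Zfp46, Zfp426, Zfp26, Zfp458, Zfp40, Zfp599, Zfp169, Zfp317, Zfp316, Zfp790, Zfp661 and Zfp324. They took 0.0891% and 0.0947% of the counts in cerebellum, 0.0488%, 0.115% and 0.151% in cortex, and 0.102%, 0.140%, 0.137% and 0.0882% in hippocampus. Cerebellum lay inside the forebrain range. The partners of KRAB proteins were measured too: of 17 genes for KAP1, its heterochromatin and NuRD partners, 8 were tested and 0 passed in either contrast, where edgeR called 7.67% and 0.0% of all rows, with Chd3, a NuRD remodeller, at the highest level.

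The first contrast asked which members were more frequent among the fragments of cerebellum than of the forebrain, the mean of cortex and hippocampus. Zfp521 and Zfp423 were higher in cerebellum, by 2.73 ± 0.56 (SE) and 1.94 ± 0.65 (SE) on the log2 scale. They are paralogous proteins of many fingers that bind the EBF transcription factors, Zfp423 is needed for growth of the cerebellar vermis, and Zfp521 takes part in neural differentiation. In edgeR's quasi-likelihood test with Benjamini-Hochberg adjusted p under 0.05 over 1720 rows, 2 of the 18 members with enough counts were called higher and 0 lower, where 7.67% of all rows were called, 3.9% higher and 3.78% lower. DESeq2 called 1 member, Zfp521, where it called 5.06% of all rows. The filter passed rows by their level in a region, so the 18 are not a sample of the 83, and 2 of 18 is not read as an excess. Zfp521 and Zfp423 reached the filter through their cerebellum samples, the group in which they are high. Because the members were chosen on sums that weight cerebellum heavily, a direction towards cerebellum among them is partly given by the choice.

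Zfp521 lies at chr18:13687013-13972787 on the minus strand of mm10 as a protein-coding gene of 8 exons. Its level was 733 CPM (exact 95% interval 572 to 926) in cerebellum 1 and 517 CPM (421 to 627) in cerebellum 2. In cortex it was 97.7, 71.7 and 0 CPM, the 0 in a library whose floor of 3 counts is 252.1 CPM. Both cerebellum samples were above all forebrain samples and also above that floor, though the interval of hippocampus 4 (49.7 to 467 CPM) overlapped that of cerebellum 2. In hippocampus it was 92.1 (1+2), 119, 182 and 92.9 CPM. Region means were 625.1 ± 153 (SD, n = 2) in cerebellum, 56.5 ± 50.6 (SD, n = 3) in cortex and 122 ± 42.4 (SD, n = 4) in hippocampus.

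Zfp521 passed the test against the forebrain (edgeR, Benjamini-Hochberg adjusted p = 0.000111). In the same fit it also passed against each forebrain region alone, with 3.29 ± 0.79 (SE, adjusted p = 0.00359) against cortex and 2.17 ± 0.54 (SE, adjusted p = 0.00240) against hippocampus in edgeR. In the fit over all rows with a sum of at least 30, Zfp521 passed against neither region alone. There it had 3.27 ± 0.96 (SE, edgeR adjusted p = 0.12) against cortex and 2.40 ± 0.70 (SE, edgeR adjusted p = 0.0533) against hippocampus. The alternatives given below are for the contrast with the whole forebrain. The sample titles carry a numeric code shared between regions, whose meaning the labels do not give. Cerebellum 1 shares its code with cortex 1 and hippocampus 1+2, and cerebellum 2 with hippocampus 3 only. The code of cortex 2, cortex 3, hippocampus 4 and hippocampus 5 is on no cerebellum sample. With the code as a block, cerebellum and cortex therefore met directly only in cerebellum 1 and cortex 1. Within samples of 1 code, log2 ratios were taken on the TMM scale and not on the CPM listed above. They were 3.13 for cerebellum 1 over the mean of cortex 1 and hippocampus 1+2, and 1.51 for cerebellum 2 over hippocampus 3. In edgeR it did not pass when cerebellum 1 was left out (2.12, adjusted p = 0.586), when cortex 1 was left out (3.03, adjusted p = 0.0917) or with no filter on low counts (3.01, adjusted p = 1), and it passed in the other 17 of 20 alternatives. Granule cell markers were higher in the same samples by the ranges above, and Purkinje cell markers were at 3195 to 3627 CPM in cerebellum against 656 to 1302 CPM. Their part in the level of Zfp521 was not tested.

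Zfp423 lies at chr8:87661810-87959595 on the minus strand, also with 8 exons and 27 C2H2 patterns. Its level was 293 and 345 CPM in cerebellum, 65.1, 35.9 and 0 CPM in cortex, and 161 (1+2), 59.7, 45.6 and 46.4 CPM in hippocampus. The cerebellum samples were above all others, and hippocampus 1+2 was the highest of the forebrain. Means were 319 ± 36.2 (SD, n = 2), 33.7 ± 32.6 (SD, n = 3) and 78.2 ± 55.7 (SD, n = 4) CPM. The call against the forebrain (edgeR, Benjamini-Hochberg adjusted p = 0.0382) was close to the threshold and held in 6 of 20 alternatives, with log2 fold changes from 1.54 to 2.69. Zfp423 entered that fit through its cerebellum samples. In the fit over all rows with a sum of at least 30, with the block, it did not pass (edgeR adjusted p = 0.175). Against cortex alone (2.51, adjusted p = 0.121) and hippocampus alone (1.36, adjusted p = 0.152) it did not pass, and DESeq2 gave 1.99 with an adjusted p of 0.182. Leaving out 1 sample ended the call for cerebellum 1 (edgeR adjusted p = 0.590), cerebellum 2 (0.898), cortex 1 (0.715), hippocampus 1+2 (0.141), hippocampus 3 (0.239), hippocampus 4 (0.0608) and hippocampus 5 (0.0764), and kept it for cortex 2 and cortex 3. The cell type markers given beside Zfp521 moved in the same samples, and their part was not tested here either.

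The EBF partners of these proteins are factors of early B cells and of neurons, and Purkinje cells are among those that express them. None of their 4 rows had enough counts to be tested. Their summed level was 105 to 198 CPM in cerebellum, 0 to 84.1 CPM in cortex and 53.7 to 188 CPM in hippocampus, and the ranges of cerebellum and hippocampus overlapped. Zic1, a C2H2 factor of granule neurons outside the Zfp names, was higher in cerebellum by 2.30 ± 0.61 on the log2 scale (SE, edgeR adjusted p = 0.00511). Bcl11b, a C2H2 factor of forebrain projection neurons, was lower by a log2 fold change of -4.98 ± 0.97 (SE) and was the other tested gene of the zinc finger lists to pass. Its level was 10.5 and 10.1 CPM in cerebellum, on 1 and 2 counts. It was 163, 215 and 0 CPM in cortex and 138 (1+2), 281, 45.6 and 0 CPM in hippocampus. Cortex 3 and hippocampus 5, at 0, lay below both cerebellum samples, so the regions overlapped.

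**Figure D3:**
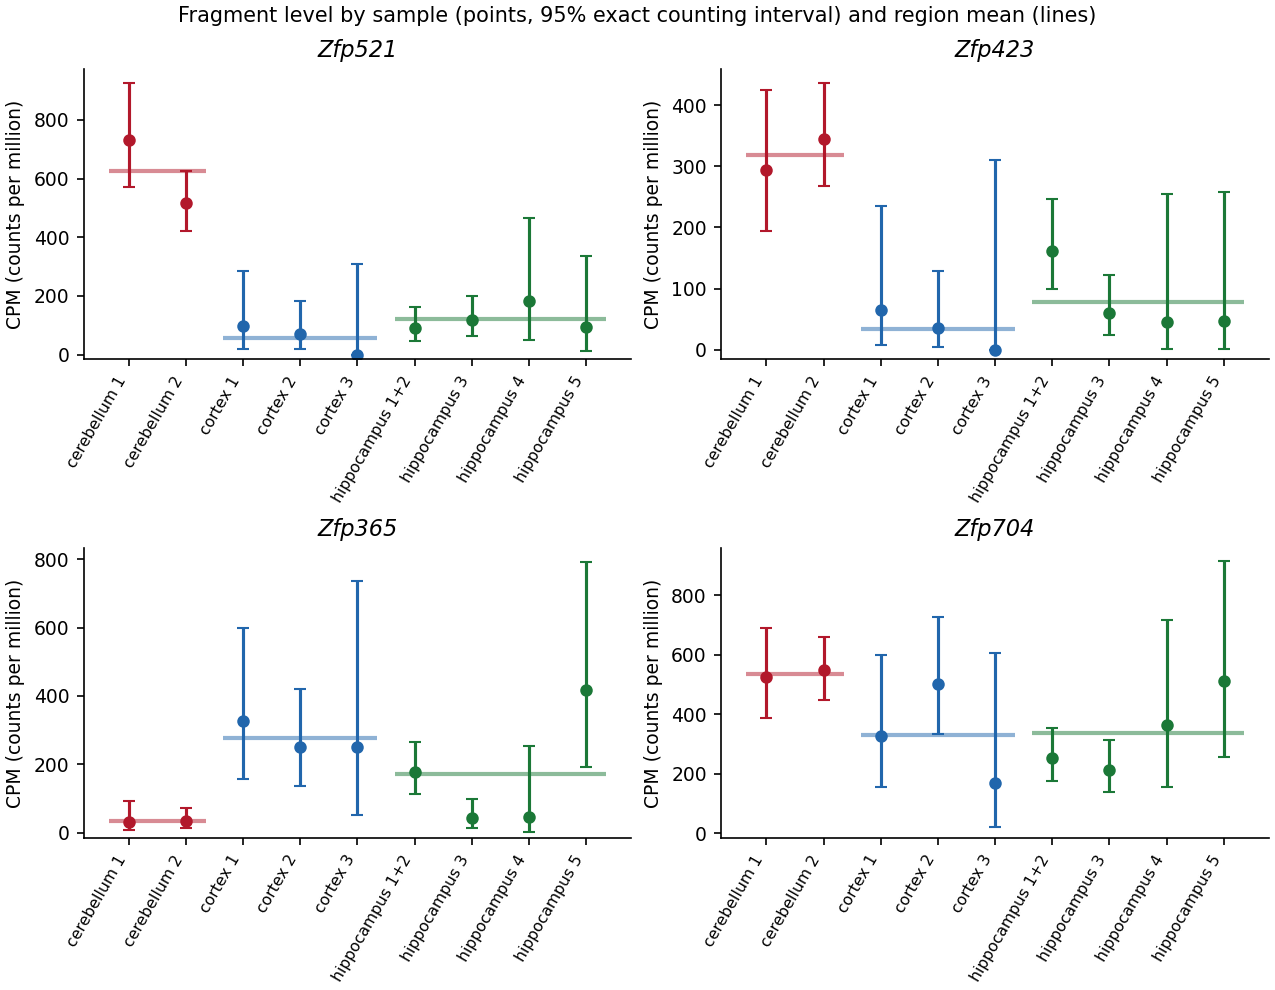
CPM (y) of Zfp521, Zfp423, Zfp365 and Zfp704 in each of 9 samples (x), with exact 95% counting intervals and region means as lines. Zfp521 and Zfp423 are highest in both cerebellum samples, and Zfp365 is lowest there. In every gene shown, a cerebellum interval overlaps that of a forebrain sample, in Zfp521 only cerebellum 2 with hippocampus 4.

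Zfp365 ran the other way. It encodes a protein known as a partner of DISC1, and it has no match to the C2H2 pattern used. It lies at chr10:67886103-67912662 on the minus strand, with 5 exons. Its level was 31.4 and 35.5 CPM in cerebellum, 326, 251 and 252 CPM in cortex, and 177 (1+2), 42.6, 45.6 and 418 CPM in hippocampus. Both cerebellum samples were below all forebrain samples, but hippocampus 3 and 4, among the samples of low known-target share, were only just above them. Hippocampus 3 rested on 5 counts and hippocampus 4 on 1, against 3 and 7 counts in cerebellum 1 and 2. Means were 33.5 ± 2.85 (SD, n = 2), 276 ± 42.7 (SD, n = 3) and 171 ± 176 (SD, n = 4) CPM. The log2 fold change against the forebrain was -1.91 ± 0.77 (SE) and missed the threshold (edgeR adjusted p = 0.12). Without the title code as a block it was -2.40 and passed (edgeR adjusted p = 0.0141), in a fit that called 9.07% of all rows, and without cortex 3, hippocampus 3 and hippocampus 4 it was -2.61 and passed (edgeR adjusted p = 0.0179).

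The most abundant member, Zfp106, showed no order of regions. It encodes an RNA-binding protein whose loss causes motor neuron disease in mice, and lies at chr2:120506820-120563843 on the minus strand. Its level was 566 and 507 CPM in cerebellum, 684, 484 and 420 CPM in cortex, and 476 (1+2), 179, 319 and 1068 CPM in hippocampus. Hippocampus held both the lowest and the highest sample, and all regions overlapped. The log2 fold change between cerebellum and forebrain was 0.53 ± 0.48 (SE, edgeR adjusted p = 0.692).

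Zfp704, the next in level, lies at chr3:9427020-9610085 on the minus strand and has a transcript of 13834 bases. Its level was 524 and 547 CPM in cerebellum, 326, 502 and 168 CPM in cortex, and 253 (1+2), 213, 365 and 511 CPM in hippocampus. Cerebellum was above every forebrain sample, cortex 2 and hippocampus 5 by little. The log2 fold change was 0.97 ± 0.48 (SE) and did not pass (edgeR adjusted p = 0.258). Zfp462, a chromatin-linked protein mutated in a human neurodevelopmental syndrome, was at 210 and 365 CPM in cerebellum, 195, 251 and 336 CPM in cortex, and 223, 145, 456 and 186 CPM in hippocampus. All its regions overlapped.

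The remaining tested members moved by at most 1.23 on the log2 scale in this contrast and none passed. Zfp536, a repressor of neuronal differentiation, had 1.23 ± 0.79 (SE, edgeR adjusted p = 0.463). Zfp609, a cofactor of the cohesin loader in cortical progenitors, had 1.16 ± 0.78 (SE, edgeR adjusted p = 0.503). Zfp644, a partner of the G9a and GLP methyltransferases, had 0.96 ± 0.56 (SE, edgeR adjusted p = 0.392), with means of 261 ± 46.2 (SD, n = 2), 207 ± 86.0 (SD, n = 3) and 119 ± 85.8 (SD, n = 4) CPM. Zfp827, which recruits the NuRD complex, and Zfp871 had -0.22 ± 0.56 and -0.55 ± 0.68 (SE), with signs that changed under other settings. Zfp638, Zfp318, Zfp292, Zfp236, Zfp266 and Zfp148 had values from 0.17 to 0.75.

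Zfp532, Zfp592 and Zfp687 form a complex with Zmynd8 on chromatin, and this set was picked after its values were seen. Zfp532 was at 272 and 243 CPM in cerebellum, 228, 215 and 84.1 CPM in cortex, and 154 (1+2), 93.8, 91.1 and 46.4 CPM in hippocampus. Its 2 cerebellum samples were the highest, and cortex 1 and 2 were above every hippocampus sample. Zfp592 had means of 165 ± 18.5 (SD, n = 2), 113 ± 49.9 (SD, n = 3) and 82.3 ± 58.7 (SD, n = 4) CPM, and Zfp687 of 99.8 ± 52.3, 77.1 ± 104 and 60.4 ± 26.1 CPM. Zmynd8 had 222 ± 2.06, 140 ± 145 and 147 ± 67.5 CPM. Of the set 2 were tested and 0 passed, where 7.67% of all rows were called, and Zfp532 had 0.58 ± 0.56 (SE, edgeR adjusted p = 0.717).

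**Figure D4:**
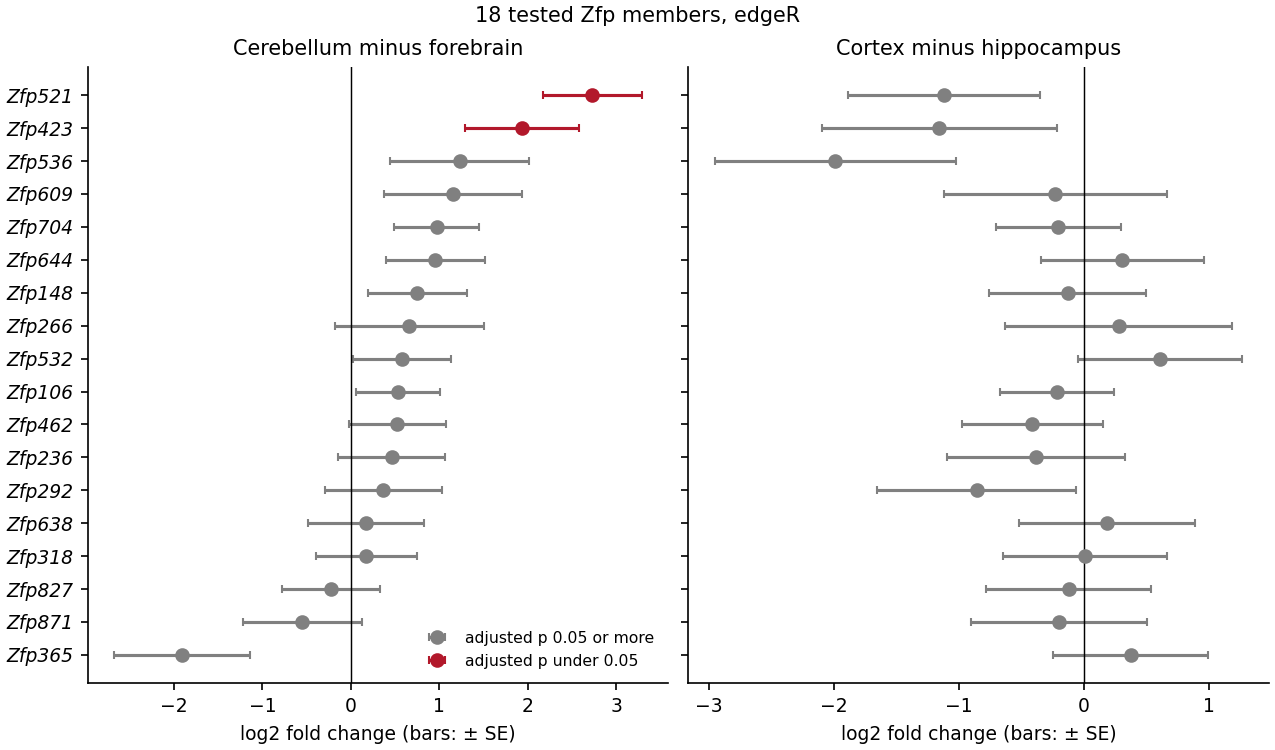
Log2 fold change (x, bars ± SE) of the 18 tested members (y) for cerebellum minus forebrain (left) and cortex minus hippocampus (right). Zfp521 and Zfp423 passed the adjusted threshold in the left panel, and no member passed in the right panel.

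A fit over all 5157 rows with a sum of at least 30 took in every member. In it, 1 of 83 members was called, Zfp521 (2.84 ± 0.71, SE, edgeR adjusted p = 0.0108), where 1.01% of all rows were called and 0.679% were called higher. Without the title code as a block the same fit called 3 of 83, Zfp521, Zfp423 and Zfp365, where 2.64% of all rows were called. The median log2 fold change of the 83 members was 0.27, and 51 were above 0. Over all 4906 such rows with an annotated transcript the median was 0.08 and 2652 were above 0. By groups, the median was 0.32 in members without a linker, 0.16 in those with 1 to 4 linkers and -0.13 in those with 5 or more. Per length, the linker-free members had median levels of 16.6 CPM per kb in cerebellum, 12.6 in cortex and 15.7 in hippocampus, and the linker-rich members 12.02, 10.7 and 14.8 CPM per kb.

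Most members were thinly counted. Only 23 of 83 had a count in each of the 9 samples, 38 were at 0 in cortex 3 and 25 in hippocampus 5, and 0 of 83 were at 0 in cerebellum 2. Zfp329 and Zfp821 had no count in any cortex sample, where a 0 allows up to 3 counts a library. By region mean, 39 members were highest in cerebellum (47.0%), 19 in cortex (22.9%) and 25 in hippocampus (30.1%), against 36.1%, 34.1% and 29.7% of all rows of the threshold. Both cerebellum samples were above all 7 forebrain samples in 8 of 83 members (9.64%), where 6.73% of all rows of the threshold were: Zfp704, Zfp521, Zfp532, Zfp423, Zfp219, Zfp518b, Zfp451 and Zfp507. Only Zfp365 was below all forebrain samples (1.20% of members, 2.23% of all rows). On the TMM scale 5 members were above all forebrain samples (6.02%, beside 5.84% of all rows), since Zfp219, Zfp451 and Zfp507 then overlapped with hippocampus 3, and Zfp365 was still the member below them.

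The last 4 of those 8 were low and did not reach the filter of the test. Zfp219 was at 126 and 111 CPM in cerebellum, at 32.6, 0 and 0 CPM in cortex and at 53.7, 93.8, 0 and 0 CPM in hippocampus. Zfp518b was at 94.3 and 111 CPM in cerebellum and at 0 to 84.4 CPM in the forebrain samples. Zfp451, a SUMO ligase, was at 126 and 86.1 CPM in cerebellum and at 0 to 84.1 CPM in the forebrain samples. Zfp507 was at 83.8 and 70.9 CPM in cerebellum and at 0 to 53.8 CPM in the forebrain samples. A 0 in cortex 3, hippocampus 4 or hippocampus 5 allows 137 CPM or more, which is above the cerebellum levels of these 4 genes, so their gaps to those samples were not detectable at this depth.

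The second contrast set cortex against hippocampus. No member passed: 0 of the 18 tested were called, where 0.0% of all 1720 rows were called by edgeR. At an unadjusted p under 0.05 there were 68 rows in all (3.95%) and 1 member, and DESeq2 called 1 row (0.0581%), no member. The member was Zfp536, lower in cortex by a log2 fold change of -1.99 ± 0.97 (SE, edgeR adjusted p = 0.999). It lies at chr7:37472135-37773641 on the minus strand. Its level was 32.6, 35.9 and 84.1 CPM in cortex, 107 (1+2), 93.8, 228 and 92.9 CPM in hippocampus, and 115 and 182 CPM in cerebellum. All 3 cortex samples were below all hippocampus and cerebellum samples, with cortex 3 resting on 1 count. On the TMM scale cortex 3, at 86.3, was above hippocampus 5, at 70.7, and the regions overlapped.

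In 0 of 83 was cortex above all hippocampus samples, where 2.27% of all rows of the threshold were. In 6 (7.23%) it was below them, where 3.51% of all rows were: Zfp536, Zfp169, Zfp316, Zfp287, Zfp324 and Zfp821. On the TMM scale cortex was above in 0 members (0.756% of all rows) and below in 8 (9.64%, beside 5.82% of all rows), where Zfp536 no longer stood and Zfp608, Zfp804a and Zfp652 were added. The 3 cortex libraries are shallow, and hippocampus 4 and 5, with totals of 21944 and 21531 counts, are shallower than cortex 1 (30721) and cortex 2 (55784). In hippocampus 5, Zfp169, Zfp316, Zfp287, Zfp324 and Zfp821 rested on 1 count each and Zfp536 on 2. The 6 of the unscaled CPM, Zfp536 among them, had 0 to 2 counts in each cortex library. Apart from Zfp536 their cortex values were 0 to 35.9 CPM. Summed hippocampal neuron markers also differed between these regions, at 504 to 932 CPM in cortex and 1003 to 2833 CPM in hippocampus. Choroid plexus and ependyma markers did so too, at 53.8 to 168 CPM in cortex and 184 to 604 CPM in hippocampus. The part of either marker set in these values was not tested.

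The 4 KRAB-type neighbours on chromosome 9 did not move as a block. Zfp26 was at 62.9 and 70.9 CPM in cerebellum, 65.1, 71.7 and 84.1 CPM in cortex, and 61.4, 111, 0 and 46.4 CPM in hippocampus. Zfp426 was at 52.4 and 70.9, then 65.1, 108 and 84.1, then 76.7, 93.8, 182 and 0 CPM in the same order. Both were level across regions apart from single shallow libraries. Zfp266 was at 115 and 96.3 CPM in cerebellum, 0, 215 and 336 CPM in cortex, and 53.7, 68.2, 0 and 186 CPM in hippocampus. Zfp846 was at 73.3 and 60.8 CPM in cerebellum, 163, 71.7 and 336 CPM in cortex, and 61.4, 145, 45.6 and 139 CPM in hippocampus. For both, the highest sample was cortex 3, at 4 counts, and the regions overlapped.

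Other zinc finger families with names of their own were read from set lists. Of 40 Zbtb rows, whose proteins join a BTB domain to C2H2 fingers, 3 were tested. Of 26 Zscan and Zkscan rows 1 was tested, of 19 Zc3h rows, RNA-binding proteins with CCCH fingers, 2, and of 14 Prdm rows 2. Among zinc finger homeobox and Zeb factors 6 of 13 were tested, among Klf and Sp factors 2 of 20, and among other C2H2 chromatin and brain factors 8 of 23. None of these tested rows passed in either contrast, beside the 7.67% and 0.0% of all rows. Only the Zic list (1 of 5 tested) and the list of Egr, Bcl11 and Ikzf factors (1 of 10 tested) held a called row, the Zic1 and Bcl11b given above.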

How the data were processed

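The authors deposited whole-number counts of fragments per gene symbol for 11 libraries. Reads were handled with Bowtie 0.12.7 and Picard on mm10, per the submitters' processing notes. What counted the fragments, with which annotation and strand setting, and whether duplicates were removed was not given in the sources used here.

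From the deposited counts, CPM are counts divided by the library total and multiplied by 1000000. In R 4.3.3, edgeR 4.0.16 was fitted by quasi-likelihood on all rows that passed filterByExpr by region (1720), with TMM factors, the numeric title code as a block, 9 samples, 4 residual degrees of freedom and Benjamini-Hochberg adjusted p under 0.05. The SE was derived from the fold change and the F statistic and is approximate. Alternatives included DESeq2 1.42.0. The scripts were tested on simulated data. Members, lists and alternatives were chosen with earlier results of these data known. Named genes were the 12 highest members, all called members, the 5 largest changes per contrast and direction, those nearest the threshold and those with the most C2H2 patterns; others were named after their values were seen.

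The numeric code in the titles is shared by samples of different regions and was taken as a pairing, though the labels do not say what it stands for. Deviations from region means correlated with a median r of 0.13 over 8 pairs of the same code (from -0.06 to 0.47) and -0.05 over 18 pairs of other codes, across genes, which are not independent replicates. Hippocampus 1 and 2 were summed. Transcript sequence and coordinates are from the GENCODE annotation of GRCm38, the mm10 build, using 1 transcript a gene, and 83 of 83 members matched.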

Additional observations from a re-analysis of the deposited data

Results flagged for a closer look

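The library with conflicting labels entered no region. Of the 18 tested members, 11 stood above the 98.87 CPM that a count of 0 allows there. It held 263.6 CPM of Zfp462, 197.7 CPM of Zfp532 and of Zfp609, and 164.8 CPM of Zfp827, Zfp148 and Zfp365. Zfp106, Zfp704, Zfp521, Zfp318 and Zfp871 were each at 131.8 CPM, while Zfp423 was at 0 and Zfp536, Zfp644, Zfp638, Zfp266, Zfp292 and Zfp236 were at or below that level. The 83 members took 0.6723% of its counts, the 39 without a linker 0.3691% and the 16 with 5 or more linkers 0.1022%.

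Among the 4 hippocampus samples, a single sample lay far from the other three in 3 measures by Dixon's test, which chance alone does in about 1 in 20 groups. The number of measures searched is not given here, so the 3 are not weighed against that rate. Zfp423 was at 161.2 CPM in hippocampus 1+2, Zfp536 at 227.9 CPM in hippocampus 4, and the share of the 83 members at 0.7942% in hippocampus 5.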

How the results depend on the processing

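Of the members, 2 were called in cerebellum against forebrain. The count was 1 with library totals alone, with DESeq2, with the filter at a sum of 30, with the conflicting library as cortex and with libraries whose titles start with s, and 0 with no filter on low counts. Leaving out each sample in turn gave 0 to 2. With no replicate block it was 3, the added one being Zfp365. With the filter at 30 and no replicate block it was also 3, where the block at that filter left Zfp521 alone. At that filter Zfp423 had an edgeR adjusted p of 0.175 with the block and 0.00111 without. With every sample kept, Zfp365 was called only in the fits with no replicate block. The choice of samples mattered too. Without cortex 3, hippocampus 3 and hippocampus 4 the fit with the block called Zfp365, and Zfp423 was not called. Over all rows, the 132 calls became 156 with no replicate block, 54 with library totals (37 higher and 17 lower, against 67 and 65), 87 with DESeq2, 1 with no filter, 52 with the filter at 30, 85 with s titles, 2, 17, 15 and 81 without cerebellum 1, cerebellum 2, cortex 1 and hippocampus 1+2, and 215 without cortex 3, hippocampus 3 and hippocampus 4, an alternative chosen after seeing the data. Library totals moved the median log2 fold change of all rows from 0.0023 to 0.12 in this contrast and from -0.037 to 0.24 in cortex against hippocampus. In the latter, 0 members were called under each of the alternatives run.

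The mean share on Zfp rows in cerebellum, cortex and hippocampus was 1.045%, 0.8051% and 0.9233% with a sum of at least 20, 0.5427%, 0.4264% and 0.3929% with at least 60, where cortex exceeded hippocampus, and 1.366%, 1.072% and 1.275% over all Zfp rows. On TMM-scaled totals, chosen after seeing the data, it was 0.8697%, 0.5761% and 0.8075%. For single named genes, 562 alternative values kept direction and call, 17 lost and 3 gained the call, and 58 changed sign, none of them in a gene called on either side; the causes were not tested. Cerebellum minus forebrain changed sign with no filter on low counts, to 0.15 in Zfp827. With s titles only it changed to 2.77 in Zfp871. With no replicate block it changed to 0.30 in Zfp827. With the filter at 30 and no replicate block it changed to 0.38 in Zfp827. With cortex 3, hippocampus 3 and hippocampus 4 left out it changed to 0.39 in Zfp871. Leaving out 1 sample at a time gave -0.35 to 0.024 in Zfp827, -1.37 to 0.49 in Zfp871 and -0.14 to 1.56 in Zfp266. Cortex minus hippocampus changed sign with library totals alone, to 0.057 in Zfp704, 0.22 in Zfp827, 0.17 in Zfp148, 0.056 in Zfp871 and 0.023 in Zfp609. With no filter on low counts it changed to 0.068 in Zfp704, 0.087 in Zfp827, 0.12 in Zfp148, 0.069 in Zfp871 and 0.021 in Zfp609. With the filter at a sum of 30 it changed to 0.10 in Zfp827, 0.085 in Zfp148 and 0.022 in Zfp871. With s titles only it changed to 0.45 in Zfp106, 0.088 in Zfp704, 0.16 in Zfp827, -0.28 in Zfp318, 0.29 in Zfp148 and -5.85 in Zfp266. With no replicate block it changed to -0.0012 in Zfp318 and 0.011 in Zfp148. With the filter at 30 and no replicate block it changed to 0.058 in Zfp106, 0.10 in Zfp704, 0.29 in Zfp148, 0.16 in Zfp871 and 0.24 in Zfp609. With 10 separate libraries it changed to -0.044 in Zfp318. With the conflicting library as cortex it changed to -0.037 in Zfp318. With cortex 3, hippocampus 3 and hippocampus 4 left out it changed to 0.043 in Zfp704, 0.056 in Zfp827, -0.37 in Zfp318, 0.079 in Zfp148 and -0.36 in Zfp266. Leaving out 1 sample at a time gave -0.60 to 0.29 in Zfp106, -0.48 to 0.064 in Zfp704, -0.72 to 0.20 in Zfp462, -0.25 to 0.013 in Zfp827, -0.22 to 0.43 in Zfp318, -0.011 to 0.83 in Zfp644, -0.53 to 0.15 in Zfp148 (-0.26 without cortex 1), -1.61 to 1.14 in Zfp871, -0.86 to 0.44 in Zfp609 and -0.27 to 1.36 in Zfp266. With 2 cerebellum samples and shallow libraries of cortex and of hippocampus 4 and 5, depth limits most members to a few counts a library.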
